A study of Mus musculus with 3 samples.

Results

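RNA-rich hepatic tumour cells are cells of the liver lineage that came through a sort for CD45, the surface protein of white blood cells, with at least 10000 counted RNA molecules each. They were found in 3 single-cell libraries of live, CD45-stained cells that had been sorted out of the liver tumours of mice in the MYC-ON state. A barcode, the tag of 1 droplet, was taken as such a cell when it held at least 200 genes, at most 10% mitochondrial UMIs and at least 10000 UMIs, where a UMI is the count of 1 captured RNA molecule. It also needed at least 50 UMIs of Alb, Afp, Apoa1 and Ttr together, and at most 2 of Ptprc (the gene of CD45), 20 of the myeloid gene Lyz2 and 2 of the endothelial genes Kdr, Stab2 and Cdh5 together. This gave 189 of 41975 barcodes, with 46 of 12639 in control, 46 of 15686 in DU101 and 97 of 13650 in DU102. These genes, the depth and the mitochondrial limit chose the cells, so values of any of them describe the choice and are not results.

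All 3 groups were C57BL6 mice of 18 weeks in the MYC-ON state, which by its name has MYC switched on. They were labelled CONTROL, DU101 treated and DU102 treated. The sources used here give neither the nature of DU101 and DU102 nor the dose, the length of treatment, what the control mice received or the promoter behind MYC. Each group has 1 library, and the number of animals in it is not stated. No difference between libraries therefore has a replicate check, and no test between groups was possible. Brackets hold 95% intervals that cover counting error only. Those of shares are exact binomial (Clopper-Pearson) intervals, and those of fold differences are exact Poisson intervals of the UMIs behind them.

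Hepatocytes secrete most proteins of blood plasma, among them albumin (Alb), transthyretin (Ttr), apolipoprotein A-I (Apoa1) and the clotting factors. Fetal liver and many liver cancers also make alpha-fetoprotein (Afp), the imprinted growth factor Igf2 and the non-coding RNA H19, which adult hepatocytes hardly make. MYC is a transcription factor that drives ribosome building, nucleotide synthesis and cell division, and mouse livers that over-produce it develop liver cancer. Neither hepatocytes nor the tumours that arise from them make CD45.

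The libraries held 91013198 (control), 106604935 (DU101) and 96817875 (DU102) UMIs in all. Pairs of libraries shared between 37 and 57 barcode sequences, and none of these involved a hepatic tumour cell. Scrublet, run per library on barcodes within the quality limits, called 2.86, 2.45 and 2.43% of them doublets in control, DU101 and DU102, and none of the 189 cells. The deep immune cells used for comparison were barcodes of the same library, quality and depth limits with at least 3 Ptprc UMIs, numbering 2383, 2000 and 2196. No UMI of Alb, Afp, Apoa1 or Ttr was seen in 71.2, 76.4 and 55.5% of them.

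The liver identity held in genes that did not choose the cells. After each barcode was thinned to 10000 UMIs, Krt8, a keratin of simple epithelia, was seen in 93.5% of the control, 91.3% of the DU101 and 96.9% of the DU102 cells, against 3.40, 2.70 and 3.32% of the deep immune cells. Its partner Krt18 was seen in 87.0, 93.5 and 92.8%, against 2.31, 3.15 and 4.05%. Igf2 was seen in 93.5, 91.3 and 91.8%, against 5.83, 5.50 and 7.79%, and H19 in 100, 97.8 and 96.9%, against 25.7, 14.6 and 25.7%. The deep immune cells had median depths of 14063, 14766 and 14600.5 UMIs before thinning. Free RNA in the droplets can give such UMIs to cells that do not make them, and the keratin and Igf2 shares of the tumour cells lay far above those in immune cells. Hnf4a, the transcription factor that sets hepatocyte identity, was seen in 65.2, 28.3 and 48.5% of the cells, against 0.546, 0.550 and 0.911% of deep immune cells. RNA levels alone do not tell a tumour cell from a normal hepatocyte. Of 13 major urinary protein genes, products of mature hepatocytes, 12 had no UMI in any of the 189 cells, as had 6 of 16 cytochrome P450 and conjugation genes. The urinary protein genes are close copies of each other, so reads that match several of them may be lost. That was not tested, and these zeros do not settle what the cells are.

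Genes of liver proteins, most of them secreted, were among those furthest above the deep immune cells, by mean level over the 3 libraries. Levels below are CPM, a scale on which 10000 stands for 1% of the UMIs summed over all cells of the group, and this 3' assay counts molecules irrespective of gene length. Besides the genes of the rule, they included Ahsg (fetuin-A, a carrier protein of plasma), Serpina1e (an alpha-1-antitrypsin gene), Fgb (fibrinogen) and Fabp1 (the liver fatty acid-binding protein). Ahsg had 328 CPM in control, 288 in DU101 and 598 in DU102, against a mean of 2.84 CPM in deep immune cells. Fgb had 1307 CPM in control, 1169.5 in DU101 and 1600 in DU102, against a mean of 19.3. Bex1, a small signalling adaptor, was seen in all 189 cells at 854, 1202 and 1294 CPM, against a mean of 21.5.

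**Figure D1:**
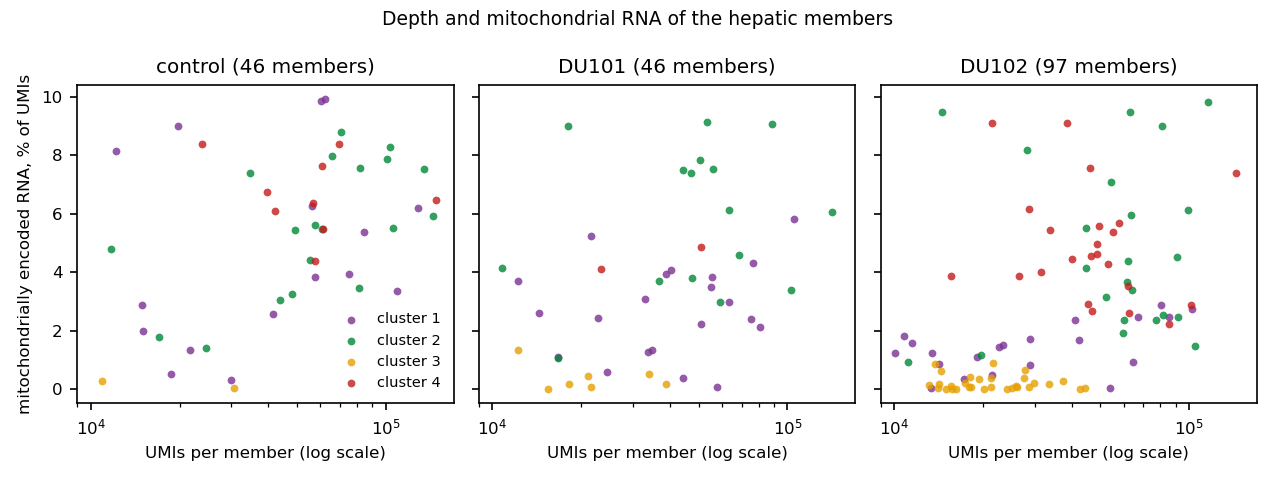
Each point is 1 of the 189 hepatic tumour cells, the members of the plot, by its UMIs (horizontal, log scale) and the percent of them that are mitochondrial (vertical), with 1 panel per library and colours for clusters 1 to 4, which are described further on. DU102 has 30 of its 97 cells under 0.5% mitochondrial UMIs, against 3 of 46 in control and 7 of 46 in DU101.

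The cells of the DU102 library were more numerous and less deep. As a share of all barcodes within the quality and depth limits, they were 1.64% (1.20 to 2.18) in control, 1.56% (1.14 to 2.07) in DU101 and 3.63% (2.95 to 4.41) in DU102. The DU102 share was 2.21 times that of control, and the DU101 share 0.95 times. The sort was for CD45, which these cells lack, so the share counts what came through the gate and not the tumour cells of the liver. Raising the depth limit to 20000 UMIs brought the DU102 share to 1.29 times control, at 8.27% against 6.41%, with 38 control, 37 DU101 and 71 DU102 cells left. Limiting mitochondrial UMIs to at most 5% left 19, 35 and 79 cells, or 0.730, 1.21 and 3.08%, which put DU101 at 1.66 and DU102 at 4.23 times control. Median depth was 56954.5 UMIs in control, 42289 in DU101 and 33494 in DU102. Single cells lay between 10030 and 148481 UMIs. Just inside the limit on the 4 liver genes, at 50 to 99 UMIs, lay 9, 10 and 11 cells, and just outside it, at 20 to 49 UMIs, lay 5, 14 and 9 barcodes. Barcodes that met every limit but that on Ptprc numbered 7, 11 and 3, and those from 5000 UMIs up to the depth limit that met all others numbered 6, 6 and 14.

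The mitochondrial share of RNA, which the rule cuts at 10%, differed between the libraries among the cells kept. A limit of 20% took in 56 control, 54 DU101 and 103 DU102 cells in place of 46, 46 and 97, so the medians describe the choice too. The median share was 5.49% in control, 3.43% in DU101 and 1.82% in DU102, and cells under 0.5% numbered 3, 7 and 30. Deep immune cells of the same libraries had medians of 2.69, 1.69 and 2.01%, lower in both treated libraries than in control but without the order seen in the tumour cells. Over the 189 cells the share went with that of Malat1, a nuclear non-coding RNA, at a Spearman rho of 0.56, and with depth at 0.51. Both describe cells of 3 libraries that share depth, and are not tests. Thinned to 10000 UMIs, the cells held a median of 2989 genes in control, 2803.5 in DU101 and 2764 in DU102, against 2623, 2495 and 2556 in deep immune cells.

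RNA of white blood cells was low but not absent. The 8 neutrophil markers summed to 267 CPM in control, 593 in DU101 and 710 in DU102, against 15732, 71290 and 119449 in the deep immune cells of the same libraries, in the same order, and the part of that RNA in the differences below was not tested. The 10 macrophage markers summed to 3204, 2852 and 3772 CPM, against 4324, 2483 and 2159, with Apoe, an apolipoprotein that hepatocytes also make, at 3171, 2823 and 3747 of these and Fcgr1 at 0 in control and DU101. The 9 monocyte markers summed to 127, 178 and 192 CPM, against 3212, 3515 and 4817. T cell markers summed to 19.99, 12.4 and 14.9 CPM and stellate or fibroblast markers to 1.47 to 1.91 CPM, and the B cell genes Ms4a1 and Pax5 had no UMI in the control and DU101 cells. Igkc, the antibody kappa chain, was at a median of 36.7, 401 and 50.6 CPM per cell, against 2286, 19964 and 3389 CPM in the deep immune cells. One control cell carried Igkc at 140702 CPM and was called no doublet. It is kept in the values below, and leaving it out moved no count of genes past the fold by more than 1.5 times.

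The control cells came from animals of both sexes. Xist, made from the inactive X of females, without Y-linked RNA (Ddx3y, Eif2s3y, Kdm5d and Uty) was found in 18 of the 46 control cells, Y-linked RNA without Xist in 14, both in 5 and neither in 9. In DU101 34 cells and in DU102 85 cells held Y-linked RNA, 12 in each held neither, and none held Xist. The 5 control cells with both had a median depth of 81048 UMIs, and 1 of them held 17 UMIs of each kind. Sex and treatment therefore cannot be told apart in a comparison with all control cells, and values against the 14 control cells with Y-linked RNA alone are given for the main differences they turn or bring near 0.

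The liver genes of the rule varied widely from cell to cell, and the libraries overlapped. Alb ran from 36.5 to 6176 CPM over the control cells with a median of 630.2, from 0 to 18743 with a median of 330.2 in DU101, and from 0 to 19533 with a median of 1176 in DU102. Afp ran from 160 to 15034 with a median of 1730, from 55.2 to 23738 with a median of 1320, and from 0 to 25170 with a median of 2251. Cells with high Afp also had high Alb, at a Spearman rho of 0.74 over the 189 cells, and between 0.69 and 0.79 within each library. Both genes count toward the limit that chose the cells, so this relation describes the choice and is not a result. Summed over the cells of a library, Apoa1 had 2327 CPM in control, 1807 in DU101 and 3805 in DU102 and Ttr 3388 CPM in control, 4382 in DU101 and 5355 in DU102.

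H19 did not choose the cells and was seen in nearly all of them. It ran from 1306 to 16752 CPM in control with a median of 5244, from 22.6 to 8263 with a median of 2570 in DU101, and from 0 to 9707 with a median of 3948 in DU102. Igf2, its neighbour in the same imprinted region, ran from 0 to 5162 with a median of 949, from 34.7 to 2303 with a median of 563, and from 0 to 3182 with a median of 981. The 2 genes went together at a rho of 0.67 over the 189 cells. Medians of both were lowest in DU101, and the ranges overlapped in all 3 libraries.

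**Figure D2:**
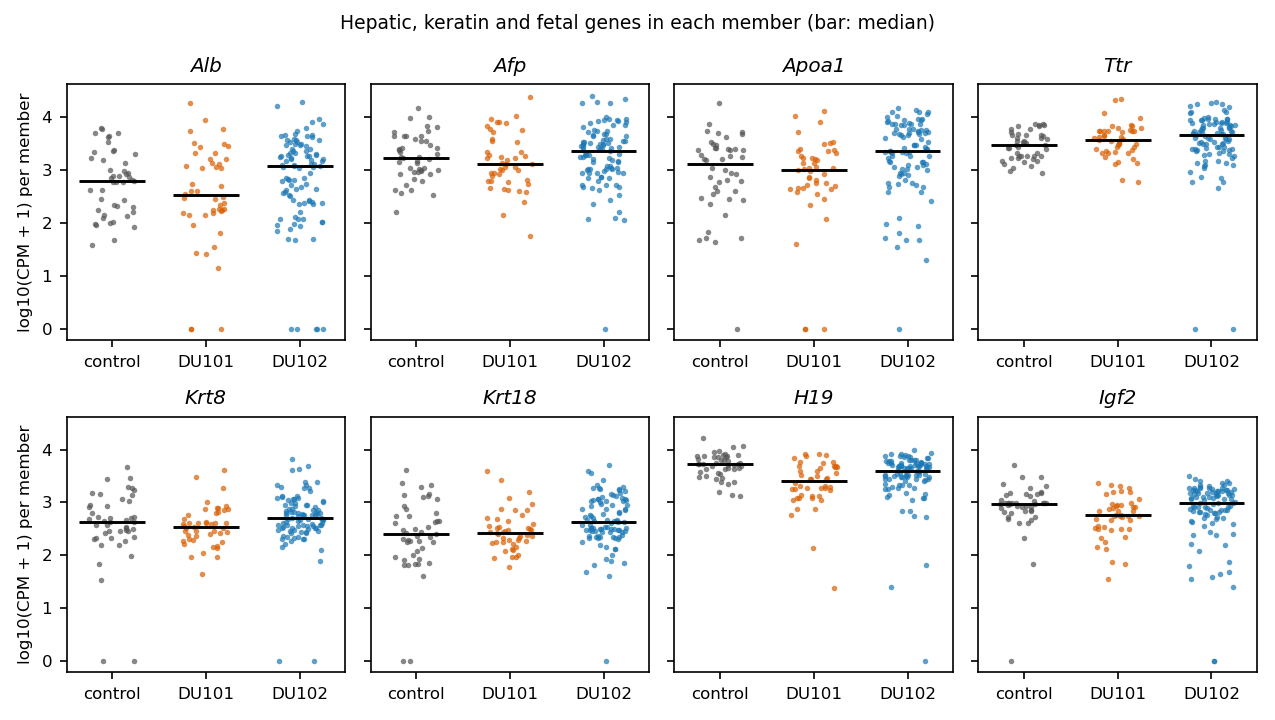
Level per cell as log10(CPM + 1) (vertical) of 4 liver genes, 2 keratins, H19 and Igf2 in the hepatic tumour cells of control, DU101 and DU102, 1 point per cell (member) with a bar at the library median. The medians of H19 are 5244, 2570 and 3948 CPM, and the ranges of the libraries overlap for every gene shown.

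Clustered on their own (Leiden, resolution 0.5), the 189 cells fell into 4 clusters of 58, 58, 39 and 34 cells. Their leading genes define them and are given as description, and the clusters are called by number. Cluster 1 was led, by mean level, by Mdm2, Cdkn1a, Bbc3 and Ccng1, which are targets of the tumour suppressor p53, and by the small nucleolar RNA host genes Zfas1, Snhg12 and Snhg1. The median per cell of Mdm2 was 19.2 CPM there, against 19.7, 0 and 32.8 in clusters 2, 3 and 4. That of Ccng1 was 20.5 CPM, against 20.8, 0 and 32.3, and that of Cdkn1a 63.0 CPM, against 34.6 to 51.4. Cluster 1 had a low median of Alb (174 CPM) and of Afp (1009 CPM), and the highest median of 30 MYC target genes summed, 29729 CPM. Cluster 2 was led, after antibody genes of the 1 control cell, by Cps1 (the first enzyme of the urea cycle), Gldc (glycine breakdown), Apob and Plg (plasminogen), and had the highest median depth, 60109.5 UMIs. Cluster 3 was led by histone genes with Hamp (hepcidin, the iron hormone), Hp (haptoglobin) and Fabp1. It had a median of 21050 UMIs, 0.145% mitochondrial RNA and 142 CPM of Malat1, against 1522 to 7012 CPM in the other clusters.

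Cluster 4 was led by Spp1 (osteopontin), S100a6, Sparc, Clu (clusterin) and Ankrd1. Its cells held more keratin and less cell cycle RNA than those of the other clusters. Median Krt18 was 1205 CPM, against 209 to 312 CPM elsewhere, and median Krt8 was 1080 CPM, against 350.2 to 428. The 20 genes of the G2 and M phases summed to a median of 170.1 CPM, against 1305 to 1887, and the 30 MYC targets to 10362 CPM, against 21610 to 29729. Peg3, an imprinted zinc finger gene, had a median of 1227 CPM, against 54.0 to 209, and Cldn6, a tight junction gene of fetal epithelia, had 298 CPM, against 0 to 31.4. Across all 189 cells, MYC targets went with S phase genes at a rho of 0.47 and against clotting factor genes at -0.51, with the same sign in every library.

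The libraries drew on the clusters unequally. Cluster 1 held 34.8% of the control cells, 45.7% of DU101 and 21.6% of DU102, and cluster 2 held 41.3, 34.8 and 23.7%. Cluster 3 held 2 of 46 control cells, 4.35% (0.531 to 14.8), 7 of 46 DU101 cells, 15.2% (6.34 to 28.9), and 30 of 97 DU102 cells, 30.9% (21.9 to 41.1). Cluster 4 held 9 of 46 control cells, 19.6% (9.36 to 33.9), 2 of 46 DU101 cells, 4.35% (0.531 to 14.8), and 23 of 97 DU102 cells, 23.7% (15.7 to 33.4). In control, 8 of the 9 cells of cluster 4 held Y-linked RNA alone and 10 of the 16 of cluster 1 held Xist alone, so sex and cluster go together there. Those 8 are among the 14 control cells with Y-linked RNA alone, so values against the 14 change the cluster make-up of the control along with its sex. Since the clusters were built from the genes that are compared, these shares are a description. They bear on every difference below. For the lists and genes that lead each comparison, values within clusters 1 and 2, the only clusters with at least 16 cells in each library, are given.

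**Figure D3:**
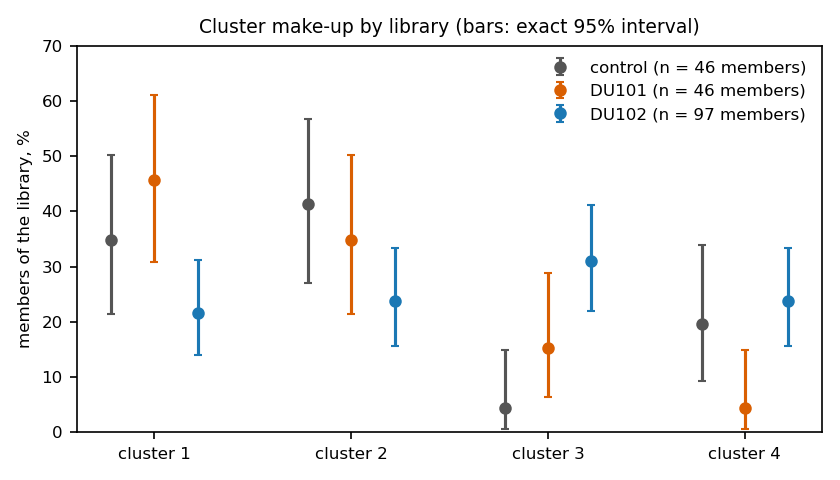
Share of each library's hepatic tumour cells (vertical, percent) in clusters 1 to 4, with exact binomial 95% intervals that cover counting error only. Cluster 3 holds 4.35, 15.2 and 30.9% of the control, DU101 and DU102 cells, and cluster 4 holds 19.6, 4.35 and 23.7%.

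DU101 against control asks how the tumour cells of treated animals differed from those of control animals. Imprinted and oncofetal RNAs, complement C3 and several liver enzymes were lower in DU101, and heat shock and early response genes were higher. Past the fold means a ratio of at least 1.5 between 2 libraries, among genes with a mean of at least 20 CPM and at least 30 UMIs over both. Of 5475 genes, 221 (4.04%) were higher in DU101 and 525 (9.59%) lower. That split depends on the scaling: with TMM factors 357 were higher and 341 lower, and with median-of-ratios size factors, which add 0.12 to every log2 ratio, 385 and 318. Within cluster 1 alone, 109 of the 217 higher genes that had a value and 369 of 515 lower genes stayed past the fold, and within cluster 2 alone 121 of 221 and 202 of 524.

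Of 10 oncofetal and progenitor genes measured among 18 listed, 8 were lower in DU101 and 1 higher, with a median log2 ratio of -1.06, against -0.04 over all genes. The list holds Afp, a gene of the rule, which was not past the fold, and the median of the other 9 was -1.24. H19 had 6179.6 CPM in control, 3372 in DU101 and 4171 in DU102, which put DU101 1.83-fold lower (1.78 to 1.88). Igf2 had 1112 CPM in control, 672 in DU101 and 1066 in DU102, 1.66-fold lower (1.55 to 1.76) in DU101. Both were lower within cluster 1 (log2 ratios of -0.83 and -0.77) and cluster 2 (-0.50 and -0.28). Peg3 had 523 CPM in control, 201 in DU101 and 483 in DU102, 2.604-fold lower (2.33 to 2.91), and cluster 4 gave 62.3% of its control UMIs and 12.4% of its DU101 UMIs. Within cluster 1 the log2 ratio of Peg3 was 0.50, and within cluster 2 it was -0.39.

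Meg3 and Rian, non-coding RNAs of another imprinted region, went the same way over all cells. Meg3 had 304 CPM in control, 117 in DU101 and 309.9 in DU102, 2.59-fold lower (2.24 to 3.001), with UMIs in 25 of 46 control cells, 14 of 46 in DU101 and 44 of 97 in DU102, and its log2 ratios were 0.27 and -0.78 within clusters 1 and 2. Rian had 91.8 CPM in control, 29.6 in DU101 and 82.2 in DU102, 3.11-fold lower (2.34 to 4.17), with UMIs in 27 of 46 control cells, 9 of 46 in DU101 and 49 of 97 in DU102. Sox4, a transcription factor of progenitor cells, had 60.3 CPM in control, 12.9 in DU101 and 65.8 in DU102, and cluster 4 gave 90.8% of its UMIs in control. With at most 5% mitochondrial UMIs the log2 ratio of Sox4 turned from -2.23 to 1.78, so its direction rests on the cells above that limit. Gpc3 (glypican-3, a surface proteoglycan of liver cancer) had 64.1 CPM in control, 26.2 in DU101 and 32.04 in DU102 and turned likewise, from -1.29 to 2.48. The median of the oncofetal list was -0.08 within cluster 1, -0.33 within cluster 2 and -1.36 against the 14 control cells with Y-linked RNA alone.

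Liver enzymes and secreted proteins made up most of the rest. Itih3, a carrier of hyaluronan in plasma, had 165 CPM in control, 41.5 in DU101 and 126 in DU102, 3.99-fold lower (3.16 to 5.08) in DU101. Its log2 ratio was -1.79 within cluster 1 and -1.54 within cluster 2, and between -2.48 and -1.69 under all 13 alternatives. Pcx, pyruvate carboxylase, which opens glucose synthesis, had 139.9 CPM in control, 43.9 in DU101 and 92.7 in DU102, 3.19-fold lower (2.53 to 4.05), with -1.78 and -1.33 within the 2 clusters. Slc25a47, a liver carrier of the mitochondrial membrane, had 84.4 CPM in control, 27.2 in DU101 and 44.3 in DU102, 3.11-fold lower (2.31 to 4.23), with -0.59 and -1.59. Igfbp1, a secreted binder of insulin-like growth factors, had 245 CPM in control, 82.5 in DU101 and 158 in DU102, 2.98-fold lower (2.51 to 3.54), and was lower within both clusters.

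C3, the central protein of complement, was seen in 45 of 46 control cells, 40 of 46 in DU101 and 91 of 97 in DU102. It ran from 0 to 3599 CPM over the control cells with a median of 536, from 0 to 3373 with a median of 158 in DU101, and from 0 to 9888 with a median of 304 in DU102. Summed, it had 815 CPM in control, 316 in DU101 and 809.9 in DU102, 2.58-fold lower (2.36 to 2.82) in DU101, with log2 ratios of -0.98 and -0.73 within clusters 1 and 2. Of 7 complement genes measured, 4 were lower and none higher, with a median of -0.61. Of 13 genes of the urea cycle and amino acid breakdown, 6 were lower and none higher (median -0.57), with Cps1 at 103 CPM in control, 45.8 in DU101 and 12.7 in DU102. Hnf4a had 136 CPM in control, 61.03 in DU101 and 80.96 in DU102, 2.23-fold lower (1.82 to 2.75), and was lower within both clusters (-0.78 and -1.16).

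For secreted plasma carriers the median log2 ratio was -0.25, and -0.30 without the genes of the rule. Of 11 measured, only transferrin (Trf), the iron carrier, was past the fold, a share near the 9.59% of all genes that were lower. Trf had 2693 CPM in control, 1498 in DU101 and 2958 in DU102. Of 11 clotting factor genes, Plg at 117 CPM in control, 57.2 in DU101 and 101 in DU102 and the fibrinogen gene Fga at 698 CPM in control, 394 in DU101 and 581 in DU102 were lower by 1.5-fold or more. Of 8 acute phase genes, those that liver makes in inflammation, 4 were lower and 1 higher, with a median of -0.77. That median was -0.25 within cluster 1, -0.20 within cluster 2 and -0.24 without cluster 4. Hamp had 194 CPM in control, 9.06 in DU101 and 138 in DU102, 21.4-fold lower (13.6 to 35.8), but was seen in only 9 of 46 control cells, 8 of 46 in DU101 and 24 of 97 in DU102, and 98.9% of its control UMIs came from cluster 2. Against the control cells with Y-linked RNA alone its log2 ratio turned from -4.42 to 1.43. Clu had 234 CPM in control cells, 53.4 in DU101 and 432 in DU102, with 67.6% of the control UMIs in 1 cell, and turned from -2.13 to 1.09 among cells with at most 5% mitochondrial UMIs, where the acute phase median was 0.19.

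Chaperones of the heat shock response, which hold proteins in shape, were higher in DU101. Of 12 measured, 7 were higher and none lower, with a median log2 ratio of 0.63. That median lay between 0.34 and 1.01 under all 15 alternatives, and was 0.34 within cluster 1 and 0.39 within cluster 2. In DU102 the median was -0.12, and 0.55 against the 14 control cells with Y-linked RNA alone. Hspe1, the mitochondrial chaperonin HSP10, was seen in all 189 cells and ran at medians of 1621, 2289 and 1652 CPM per cell. Summed it had 1559 CPM in control, 2488 in DU101 and 1672 in DU102, 1.595-fold higher (1.53 to 1.66) in DU101. Hspa1a, an inducible HSP70, had 30.7 CPM in control, 75.8 in DU101 and 33.8 in DU102, 2.47-fold higher (1.88 to 3.26), but deep immune cells held it at 614, 604 and 475 CPM. It has a near-identical copy, Hspa1b, and reads of the pair may be split between them. Hspb1, the small chaperone HSP27, had 54.1 CPM in control, 136 in DU101 and 121 in DU102, 2.52-fold higher (2.06 to 3.101), with log2 ratios of 4.71 and 0.84 within clusters 1 and 2 and 0.17 against the control cells with Y-linked RNA alone.

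Early response genes, switched on within minutes of a stimulus, were higher as well. Of 12 measured, 6 were higher and none lower, with a median of 0.56 that lay between 0.43 and 0.79 under all 15 alternatives. Jun had 159.6 CPM in control, 318 in DU101 and 297 in DU102, 1.996-fold higher (1.77 to 2.26) in DU101, with log2 ratios of 1.81 and 0.97 within clusters 1 and 2. Deep immune cells carried Jun at 721, 630 and 569 CPM, highest in control. Egr1 was 3.84-fold higher in DU101, but 1 cell held 64.9% of its UMIs there, and without the cell with most UMIs in each library its log2 ratio was 1.08 in place of 1.94.

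Among the other genes furthest above control, the leading ones by interval were Loxl2, Egr1, Hibch and Fabp3. Loxl2, a collagen cross-linking enzyme, had 19.6 CPM in control, 102 in DU101 and 13.5 in DU102, but 1 DU101 cell held 89.3% of the UMIs and the log2 ratio was 0.39 in place of 2.38 without the top cell of each library. Hibch, an enzyme of valine breakdown, had 36.3 CPM in control cells, 116 in DU101 and 31.3 in DU102, with 74.1% in 1 DU101 cell, and its log2 ratio was -0.17 without it. Fabp3, a fatty acid carrier typical of heart, was spread over more cells, with UMIs in 21 of 46 control cells, 26 of 46 in DU101 and 54 of 97 in DU102. It had 46.3 CPM in control, 128 in DU101 and 59.9 in DU102, 2.77-fold higher (2.23 to 3.45), and log2 ratios of 2.15 and 1.99 within clusters 1 and 2, though 0.52 against the control cells with Y-linked RNA alone. Cldn7, a tight junction claudin, had 98.1 CPM in control, 226 in DU101 and 211 in DU102, 2.31-fold higher (1.98 to 2.69), with 1.48 and 1.54 within the clusters.

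Dut, Orc6, Mrto4 and Snhg12 were also in the ranking. Dut, which keeps uracil out of DNA, had 201 CPM in control, 353 in DU101 and 229 in DU102, 1.75-fold higher (1.57 to 1.96). Orc6, a subunit of the origin recognition complex, had 52.2 CPM in control, 102 in DU101 and 70.9 in DU102, 1.95-fold higher (1.57 to 2.43), and Mrto4, a ribosome assembly factor, had 144 CPM in control, 259 in DU101 and 152 in DU102, 1.802-fold higher (1.58 to 2.06). The 3 were higher within both clusters. Snhg12 had 53.7 CPM in control, 105 in DU101 and 95.4 in DU102, but 33.9% of the DU101 UMIs lay in 1 cell and the log2 ratio was -0.24 within cluster 2. Of 15 genes of cholesterol synthesis, 2 were higher, among them Fdps at 122 CPM in control, 212 in DU101 and 179 in DU102. Ccne1, cyclin E1 of the G1 to S step, had 27.03 CPM in control, 59.6 in DU101 and 28.4 in DU102.

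Counts of MYC-related genes past the fold are set beside the shares of all genes. Those were 4.04% higher and 9.59% lower in DU101, and 3.74% higher and 5.6% lower in DU102, against control. Of 29 MYC targets measured, 1 was higher in DU101, Hspe1, which is also on the heat shock list, and none lower, with a median of 0.12 that lay between -0.20 and 0.61 over the alternatives. In DU102 1 was lower, Cad, which starts pyrimidine synthesis, at 72.6 CPM in control, 69.1 in DU101 and 45.01 in DU102. The DU102 median was -0.14 and lay between -0.51 and 0.30. The upper ends, 0.61 and 0.30, came with the 14 control cells with Y-linked RNA alone. The 30 genes summed to 21332 CPM in control, 25754 in DU101 and 21118 in DU102, against 10615, 10286 and 8859 in deep immune cells. Npm1, a nucleolar protein, was seen in every cell at 3187 CPM in control, 4483 in DU101 and 3621 in DU102. Myc itself was low at 34.8 CPM in control, 32.9 in DU101 and 46.5 in DU102, next to 37.9, 25.8 and 21.9 in deep immune cells, and whether RNA of the MYC transgene is counted under it is not stated.

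DU102 against control shares the control cells with the comparison above, so the lists are set side by side and not counted as agreeing. Early response genes, p53 targets and genes found mostly in cluster 4 were higher in DU102, and Cps1, Vars, Slc19a1 and Polr1a were lower. Mitochondrial RNA, which the rule limits, was lower too. Of 5532 genes, 207 (3.74%) were higher in DU102 and 310 (5.6%) lower. With TMM factors 304 were higher and 167 lower, and with median-of-ratios size factors 302 and 168. Within cluster 1 alone 103 of 183 higher and 187 of 308 lower genes with a value stayed past the fold, and within cluster 2 alone 102 of 200 and 131 of 310.

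**Figure D4:**
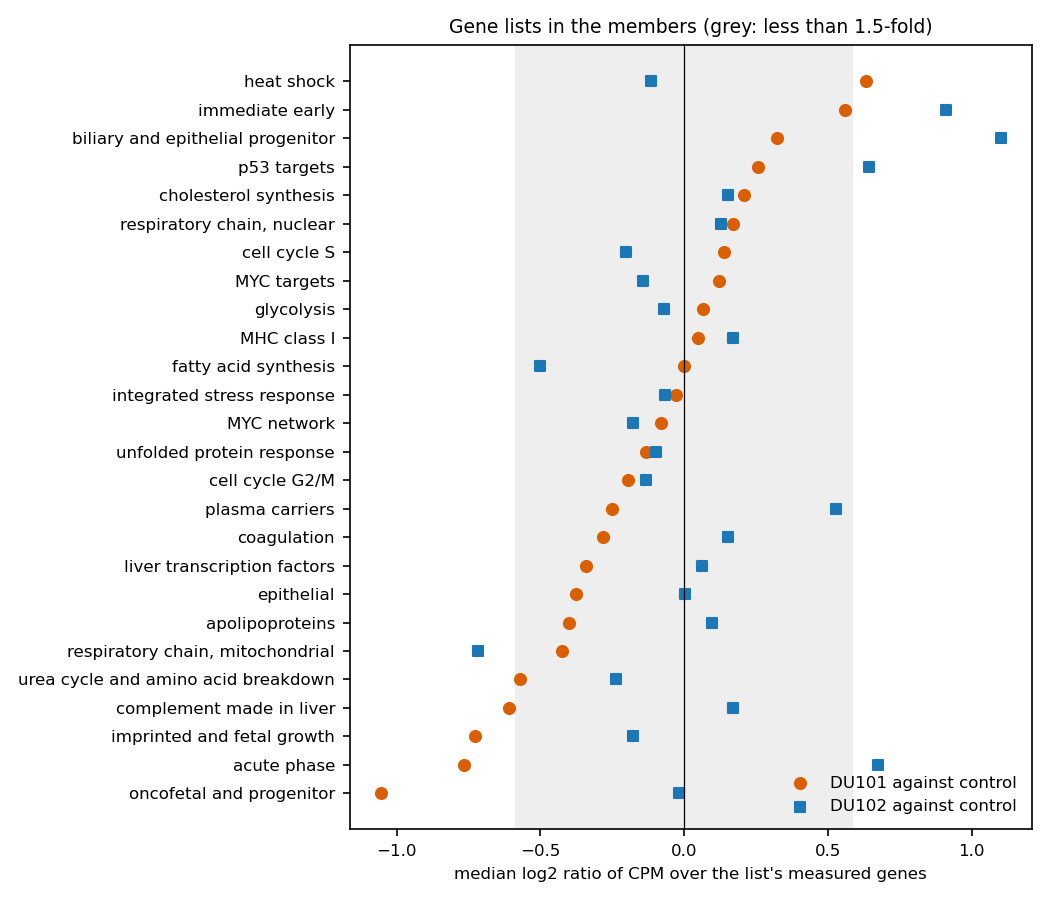
Median log2 ratio of CPM over the measured genes of each list (horizontal) in the hepatic tumour cells, with circles for DU101 and squares for DU102 against control and a grey band for ratios under 1.5-fold. Heat shock stands at 0.63 for DU101 and -0.12 for DU102 against control, and immediate early genes at 0.56 and 0.91.

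Egr1, a transcription factor of the early response, gave the interval furthest above 1. It was seen in 16 of 46 control cells, 12 of 46 in DU101 and 59 of 97 in DU102, and per cell it reached 155 CPM in control, 1156 in DU101 and 1931 in DU102 from a lowest of 0 in each. The medians were 0, 0 and 74.1 CPM. Summed, it had 23.3 CPM in control, 89.6 in DU101 and 283 in DU102, 12.1-fold higher (9.404 to 15.9) in DU102. Deep immune cells carried less of it in the treated libraries than in control, at 91.7, 78.2 and 63.9 CPM. The log2 ratio was 2.48 within cluster 1 and 4.08 within cluster 2, and between 2.55 and 4.48 under all 13 alternatives.

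Of 13 early response genes, 9 were higher and none lower, with a median of 0.91 that lay between 0.30 and 1.63 over 15 alternatives. Ier2 had 44.1 CPM in control, 72.9 in DU101 and 153 in DU102, 3.47-fold higher (2.85 to 4.26), with medians per cell of 24.3, 43.2 and 103 CPM. Jun had 1.86-fold (1.66 to 2.08) the control level. Tnfrsf12a, the receptor of the cytokine TWEAK, had 32.6 CPM in control, 46.2 in DU101 and 113 in DU102, 3.46-fold higher (2.75 to 4.398), with UMIs in 26 of 46 control cells, 30 of 46 in DU101 and 75 of 97 in DU102 and log2 ratios of 1.87 and 1.54 within clusters 1 and 2. Hbegf, a ligand of the EGF receptor, had 30.7 CPM in control, 19.5 in DU101 and 88.8 in DU102, 2.89-fold higher (2.27 to 3.71), but its log2 ratio was -0.01 within cluster 1, 0.71 within cluster 2 and 0.37 without cluster 4.

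Targets of p53 were higher in DU102. Of 7 measured among 15, 5 were higher and none lower, with a median of 0.64 that lay between 0.24 and 1.67 over the alternatives. Cdkn1a, the cell cycle inhibitor p21, had 65.5 CPM in control, 96.8 in DU101 and 175 in DU102, 2.68-fold higher (2.27 to 3.17), with UMIs in 32 of 46 control cells, 36 of 46 in DU101 and 64 of 97 in DU102 and medians per cell of 24.7, 57.4 and 46.2 CPM. Its log2 ratio was 2.17 within cluster 1 and 0.53 within cluster 2. Mdm2, which degrades p53, had 48.5 CPM in control, 26.2 in DU101 and 81.5 in DU102, 1.68-fold higher (1.37 to 2.07). It was higher within cluster 1 (1.67) and cluster 2 (0.51), and its log2 ratio was -0.06 among cells with at most 5% mitochondrial UMIs. The DU101 library had Mdm2 1.85-fold lower (1.34 to 2.58).

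Several of the highest genes had most of their UMIs in cluster 4. Spp1 had 51.1 CPM in control, 0 in DU101 and 227 in DU102, 4.43-fold higher (3.704 to 5.34) in DU102, with UMIs in 9 of 46 control cells, 0 of 46 in DU101 and 14 of 97 in DU102. One control cell held 70.3% and 1 DU102 cell 44.9% of its UMIs, and cluster 4 gave 95.7% in control and 96.7% in DU102. Sprr1a, an envelope protein of stressed epithelia, had 11.1 CPM in control cells, 2.38 in DU101 and 106 in DU102, with 96.1% from cluster 4 in DU102, and without that cluster its log2 ratio turned from 3.26 to -0.87. Ankrd1, a target of the Hippo pathway, had 3.33 CPM in control, 0.477 in DU101 and 53.3 in DU102, all from cluster 4 and from 5 cells in DU102. Tff3, a trefoil peptide of mucous epithelia, had 44.1 CPM in control, 66.7 in DU101 and 128 in DU102, 2.904-fold higher (2.38 to 3.57), and its log2 ratios within clusters 1 and 2 were -0.16 and 1.58.

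Genes of the biliary and progenitor list were higher in DU102 too. Of 5 biliary and progenitor genes measured, all 5 were higher, with a median of 1.10, but the median was 0.04 against the control cells with Y-linked RNA alone. It was 0.79 without cluster 4, 1.13 within cluster 1 and 0.26 within cluster 2. Cldn4 had 15.9 CPM in control, 30.04 in DU101 and 44.8 in DU102 and Cldn3, another claudin, 12.6 CPM in control, 2.38 in DU101 and 36.7 in DU102, and cluster 4 gave 98.7% of Cldn3 in DU102. Epcam, an adhesion protein of epithelial progenitors, had 89.97 CPM in control, 113 in DU101 and 154 in DU102, 1.71-fold higher (1.47 to 1.99), with 0.90 and 0.51 within clusters 1 and 2 and 0.01 against the Y-linked control cells. Against those cells Cldn3 stood at -0.01 and Hspb1 close to 0. Cldn7 was 2.15-fold higher (1.87 to 2.47), and higher within both clusters.

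Secreted liver proteins were higher in DU102 over all cells. Of 12 plasma carriers, 5 were higher and none lower, with a median of 0.53. Alb and Ttr, genes of the rule, were among the 5, and of the other 10 genes 3 were higher, with a median of 0.50. Ahsg was 1.82-fold higher (1.69 to 1.97), but 1 cell held 43.6% of the DU102 UMIs, and without cluster 4 the log2 ratio turned from 0.87 to -0.46. The median of the list was 0.04 without cluster 4, -0.22 within cluster 1 and 0.08 within cluster 2. Serpina1d had 101 CPM in control, 105 in DU101 and 218 in DU102, 2.15-fold higher (1.88 to 2.47), with -1.73 and 0.14 within the clusters and 0.04 without cluster 4. It is 1 of several near-identical alpha-1-antitrypsin genes, between which reads may be split. Of 8 acute phase genes 4 were higher, with a median of 0.67. That median was 0.02 within cluster 1, 0.23 within cluster 2 and 0.42 without cluster 4. Among the 4 was Hp at 19.6 CPM in control, 32.9 in DU101 and 82.4 in DU102, where 1 DU102 cell held 53.7%. Lcn2, a neutrophil and liver protein that binds iron carriers, had 21.8 CPM in control cells, 25.7 in DU101 and 91.7 in DU102, with 54.7% in 1 DU102 cell, and deep immune cells had 744, 2857 and 4951 CPM in the same order. Its immune part was not tested.

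Cps1 led the ranking of genes below control, which takes genes with a mean of at least 50 CPM by their interval. It was seen in 30 of 46 control cells, 14 of 46 in DU101 and 10 of 97 in DU102, and had 103 CPM in control, 45.8 in DU101 and 12.7 in DU102, 8.12-fold lower (6.02 to 11.1) in DU102 and 2.26-fold lower (1.78 to 2.88) in DU101. Its median per cell was 48.1 CPM in control and 0 in both treated libraries, and single cells reached 888, 806 and 500.1 CPM, so the libraries overlapped. The log2 ratio in DU102 was -3.05 within cluster 1 and -3.51 within cluster 2, and between -4.10 and -2.79 under all 13 alternatives. Of 13 genes of the urea cycle and amino acid breakdown, 4 were lower in DU102 and 1 higher, with a median of -0.24, so Cps1 stood apart from most of its list.

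Other genes ranked lowest in DU102 follow. Vars, which loads tRNA with valine, had 121 CPM in control, 105 in DU101 and 56.99 in DU102, 2.12-fold lower (1.78 to 2.52). Slc19a1, the carrier that takes up folate, had 70.7 CPM in control, 51.5 in DU101 and 34.2 in DU102, 2.07-fold lower (1.65 to 2.59), and Polr1a, the large subunit of RNA polymerase I, had 122 CPM in control, 89.2 in DU101 and 64.1 in DU102, 1.901-fold lower (1.61 to 2.24). Csad, which makes taurine precursors, had 319 CPM in control, 187 in DU101 and 181 in DU102, 1.77-fold lower (1.598 to 1.95). The remaining 6 of the ranking were Pbld1, Eif2s3x, Slc25a47, Sfmbt2, Ncln and Cps1 itself, and all 10 were lower within cluster 1 and within cluster 2. Eif2s3x, an X-linked subunit of the translation factor eIF2, had 137 CPM in control, 92.5 in DU101 and 74.1 in DU102, and its log2 ratio turned from -0.89 to 0.09 against the control cells with Y-linked RNA alone.

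Of 8 fatty acid synthesis genes 2, Fasn and Srebf1, were lower, with a median of -0.50. That median was -0.56 within cluster 1, -0.19 within cluster 2, -0.26 with at most 5% mitochondrial UMIs and -0.25 against the control cells with Y-linked RNA alone. Fasn, the fatty acid synthase, had 138 CPM in control, 142 in DU101 and 84.1 in DU102, 1.64-fold lower (1.41 to 1.91). Fatty acid synthesis in DU101 had a median of 0.00. Cell cycle genes are set beside all genes, of which 3.74% were higher and 5.6% lower in DU102. Of 18 S phase genes 2 were lower in DU102 and of 19 genes of G2 and M none passed the fold, with medians of -0.20 and -0.13. Mki67, a marker of dividing cells, had 185 CPM in control, 128 in DU101 and 137 in DU102, and Top2a, which untangles chromosomes, had 213 CPM in control, 191 in DU101 and 194 in DU102. Against the 14 control cells with Y-linked RNA alone these medians were 0.30 and 0.36 for DU102, and 0.62 and 0.40 for DU101, where they were 0.14 and -0.20 over all cells. After thinning, Mki67 was seen in 56.5, 56.5 and 44.3% of the cells, next to 40.6, 48.5 and 49.9% of deep immune cells.

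RNA of the mitochondrial genome was lower in DU102, which restates the mitochondrial share above, a value that the rule limits. Of 13 genes, 11 were lower by 1.5-fold or more, with a median of -0.72, and in DU101 1 was, mt-Co3, with a median of -0.43. mt-Nd1 had 4852 CPM in control, 3359.8 in DU101 and 2263 in DU102, and mt-Co3 had 8692 CPM in control, 5707 in DU101 and 5609 in DU102. Restricting the cells to at least 0.5% mitochondrial UMIs left the DU102 median at -0.49. Of 21 nuclear genes of the respiratory chain none was past the fold in either comparison, with medians of 0.17 and 0.13. That limit kept 43 control, 39 DU101 and 67 DU102 cells. Of the genes past the fold over all cells, 198 of 221 higher and 439 of 525 lower genes of DU101 stayed past it. For DU102, 179 of 207 and 198 of 310 did. The direction was the same for 219 of 221 and 525 of 525 in DU101, and for 207 of 207 and 310 of 310 in DU102. Most cells are shared with the full comparison, so a shared direction says little.

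Most genes that speak to immune cells were too low to be measured. Of 22 genes induced by type I interferon, 3 were measured in DU101 against control and 2 in DU102. Bst2 (tetherin) had 232 CPM in control, 379.5 in DU101 and 331 in DU102, Ifi27 had 18.5 CPM in control, 41.0 in DU101 and 58.9 in DU102, and Ifi27l2a had 8.89 CPM in control cells, 33.9 in DU101 and 19.3 in DU102 with 648, 863 and 481 CPM in deep immune cells. Cxcl10, a chemokine for T cells, had 24.1 CPM in control cells, 112 in DU101 and 138 in DU102, with 71.4% in 1 DU101 cell and 60% in 1 control cell, and its DU101 log2 ratio turned from 2.21 to -0.99 without cluster 4. The MHC class I genes, which show peptides to T cells, summed to 1211, 1201 and 1230 CPM, against 7417, 6038 and 5567 in deep immune cells, with 0 of 6 past the fold in either treated library. Cd274, which encodes the checkpoint ligand PD-L1, had 7 UMIs in control, 1 in DU101 and 2 in DU102, at 2.59 CPM in control, 0.477 in DU101 and 0.489 in DU102, against 22.4, 16.0 and 11.9 CPM in deep immune cells.

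**Figure D5:**
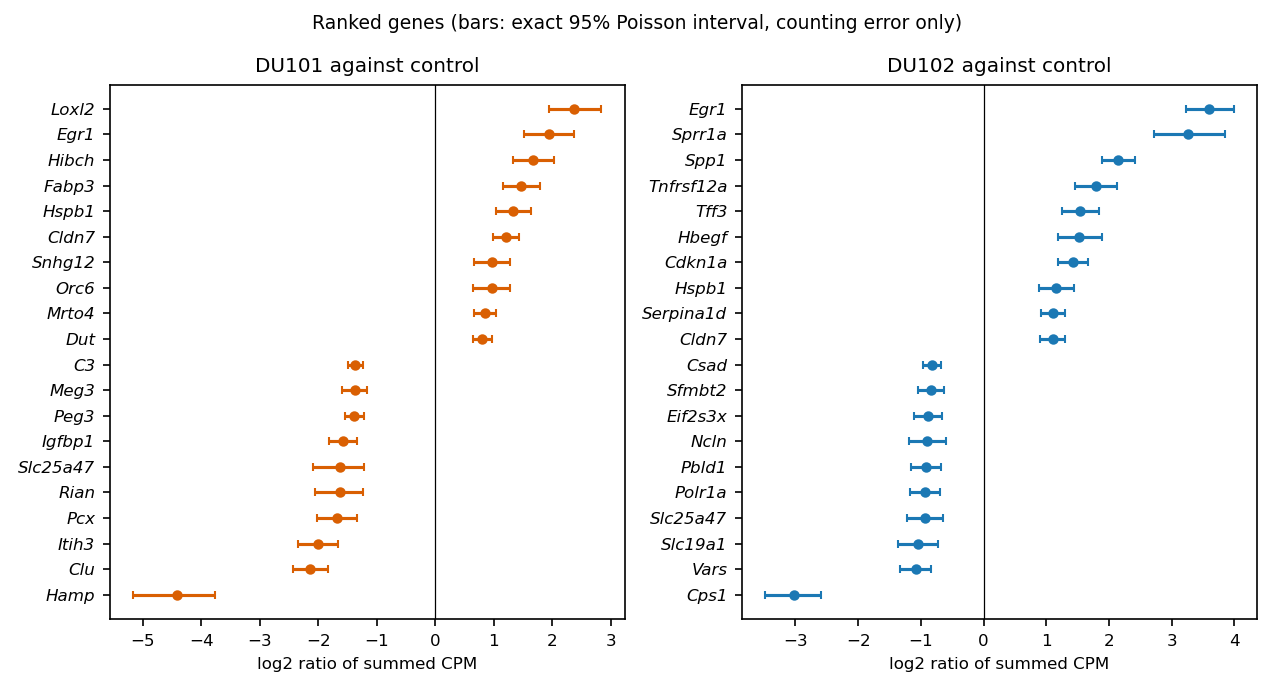
Log2 ratio of CPM (horizontal) of the 10 genes ranked highest and the 10 ranked lowest in DU101 against control (left) and DU102 against control (right), with exact Poisson 95% intervals that cover counting error only. In DU102 against control, Egr1 stands at 3.60 and Cps1 at -3.02.

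Other lists are set beside the median of all genes, which was -0.04 for DU101 and -0.07 for DU102 against control. Of all genes, 4.04% were higher and 9.59% lower in DU101, and 3.74% higher and 5.6% lower in DU102. Many of these lists are short, so 1 gene moves their share widely. For DU101 and DU102 in turn, the unfolded protein response, which answers misfolded protein in the endoplasmic reticulum, had medians of -0.13 and -0.10, with 0 and 1 of 16 genes past the fold. Glycolysis had 0.07 and -0.07, with 1 and 0 of 12. The integrated stress response, which slows translation, had -0.03 and -0.07, with 2 of 10 and 1 of 9 higher. Liver transcription factors had -0.34 and 0.06, with 2 and 1 of 7 lower. Epithelial genes had -0.38 and 0.00, with 3 of 13 lower and none higher in DU101 and 2 of 14 in each direction in DU102. Among them were Krt8 at 725 CPM in control, 529 in DU101 and 854 in DU102 and Krt18 at 539 CPM in control, 463 in DU101 and 804 in DU102. Lars2, the mitochondrial enzyme that loads tRNA with leucine, had 574 CPM in control, 283 in DU101 and 478 in DU102, 2.03-fold lower (1.84 to 2.23) in DU101. The gene model Gm42418, highest by mean outside mitochondrial and ribosomal protein genes, had the same order. It had 14955 CPM in control, 6423 in DU101 and 13484 in DU102. Whether the reads under either gene come from its own transcript was not tested.

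DU102 against DU101 sets the treated libraries side by side, without the control cells of both sexes. Secreted liver proteins, oncofetal RNAs and genes of cluster 4 were higher in DU102, and 4 of 12 chaperone genes and single genes such as Ung and Plk4 were higher in DU101. Of 5320 genes, 351 (6.6%) were higher in DU102 and 192 (3.61%) lower. Without cluster 4, which holds 23 DU102 and 2 DU101 cells, 210 were higher. Of 8 acute phase genes 7 were higher in DU102 (median 1.61), of 11 plasma carriers 7 (median 0.80), of 10 oncofetal genes 6 (median 0.80) and of 8 complement genes 4 (median 0.65), with none lower in any of these lists. None of the genes counted was of the rule, and without Alb, Ttr and Afp the plasma carrier and oncofetal medians were 0.98 and 0.94. Within cluster 1 the medians of the full lists were 0.07, 0.23, 0.10 and 0.05, and within cluster 2 they were 0.57, -0.03, 0.22 and -0.02.

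Spp1 had no UMI in the DU101 cells, so that DU102 was at least 158-fold higher against a floor of 3 UMIs in the library. Clu was 8.09-fold higher (6.68 to 9.88), Sprr1a 44.6-fold higher (18.98 to 138) and Cp, the copper carrier ceruloplasmin, 4.17-fold higher (3.34 to 5.27) in DU102, and cluster 4 gave 87.9, 96.1 and 88.0% of their DU102 UMIs. Sox4 was 5.11-fold higher (3.44 to 7.901), with 91.8% from cluster 4. Hamp was 15.2-fold higher (9.66 to 25.5), and it was higher within clusters 1 and 2 (log2 ratios of 3.06 and 2.17). Itih3 was 3.04-fold higher (2.42 to 3.86), C3 2.56-fold higher (2.36 to 2.79) and Mdm2 3.11-fold higher (2.33 to 4.21), and within cluster 1 their log2 ratios were 0.07, -0.29 and 3.27.

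Rbp4, the retinol carrier of plasma, was seen in all 189 cells at medians of 1589, 1024 and 2225 CPM per cell, and summed it had 1622 CPM in control, 1120.4 in DU101 and 2330.1 in DU102, 2.08-fold higher (1.99 to 2.18) in DU102 over DU101. Its log2 ratio was 1.33 within cluster 1 and 0.71 within cluster 2, and between 0.91 and 1.07 over 12 alternatives. Peg3 and Meg3 were 2.41-fold higher (2.17 to 2.68) and 2.64-fold higher (2.303 to 3.04), but without cluster 4 the log2 ratio of Peg3 was 0.02, while that of Meg3 was 1.30.

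Of 13 early response genes 8 were higher in DU102 than in DU101 and none lower, with a median of 0.72. That median was -0.05 within cluster 1 and -0.19 within cluster 2, so the difference did not hold inside either cluster. Egr1 was 3.15-fold higher (2.702 to 3.7), with log2 ratios of -2.71 within cluster 1, where 1 DU101 cell holds most of its UMIs, and 2.66 within cluster 2.

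In the other direction, of 12 chaperone genes 4 were lower in DU102 than in DU101 and none higher, with a median of -0.46 that lay between -0.50 and -0.34 over 14 alternatives. Hsph1, a co-chaperone of HSP70, had 75.5 CPM in control, 147 in DU101 and 50.6 in DU102, 2.9-fold lower (2.42 to 3.48) in DU102, with log2 ratios of -1.64 and -1.18 within the clusters. Hspa1a was 2.25-fold lower (1.78 to 2.84), with -1.53 and -1.31. Ung, which removes uracil from DNA, was 2.12-fold lower (1.68 to 2.68), Plk4, which doubles centrioles, 1.97-fold lower (1.59 to 2.44), and Ccne1 2.1-fold lower (1.62 to 2.73), and of 18 S phase genes 4 were lower. Loxl2 and Hibch led the ranking but rest on the single DU101 cells given above, with log2 ratios of -0.16 and -0.04 without the top cell of each library. Dennd5b, Wdcp, Fabp3, Nudt19, Vars and Fam210b completed it, of which Dennd5b, a regulator of membrane traffic, had 149.9 CPM in control, 222 in DU101 and 86.8 in DU102, 2.55-fold lower (2.22 to 2.94).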

How the data were processed

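The authors deposited raw UMI counts per gene and barcode for 3 libraries, control, DU101 and DU102, made with 10x 3' v3 chemistry per the labels' protocols. Per the file headers the matrices were written by Cell Ranger 6.0.0. Version 2.1.1 and the build mm10 stand in the submitters' processing notes. Each matrix holds 32285 features.

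Cells were chosen by the limits on UMIs given in the results, and the members and gene lists were chosen with earlier results of these data known. Counts were summed over the cells of a library and divided by their total (CPM). A gene was measured with a mean of at least 20 CPM and 30 UMIs over the 2 libraries compared, and past the fold at 1.5. A library at 0 was set to 3 UMIs in ratios. With 1 library per group there is no test, and ratio intervals are exact Poisson intervals at 95%. The ratio and its interval were tried on simulated sums drawn from the same Poisson model that the interval assumes. Those sums held no spread between cells, so the trial cannot tell how the intervals fare where few cells hold most UMIs. Shares of cells with a UMI were taken after thinning to 10000 UMIs. Depth was 2700998, 2097470 and 4088286 UMIs over the 46, 46 and 97 cells.

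Named genes are the 10 highest and 10 lowest of each comparison, ranked by the interval end nearest 1. They needed a mean of at least 50 CPM and a level at or above that of deep immune cells. Mitochondrial, ribosomal protein, haemoglobin, antibody and T cell receptor genes, numbered gene models, Xist, Y-linked genes and the genes of the rule were left out of the ranking. Up to 2 genes per list and direction, 14 genes fixed for every comparison and genes chosen after their values were seen were added. Clusters come from scanpy 1.11.5 (Leiden, 2000 variable genes, 20 components), and TMM factors from edgeR 4.0.16. The authors' tables of numbered clusters assign no barcode and were not used here. Alternatives by cluster, single cell, antibody RNA, a minimum mitochondrial share and lists without the genes of the rule were chosen after seeing the data.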

Additional observations from a re-analysis of the deposited data

How the results depend on the processing

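No paired analysis was possible because each group has 1 library. Shares of hepatic tumour cells in control, DU101 and DU102 were 0.826, 0.739 and 1.84% at 5000 UMIs, 6.41, 4.70 and 8.27% at 20000 UMIs, and 0.999, 0.983 and 2.55% with at least 200 UMIs of the 4 liver genes; at most 5% mitochondrial UMIs gave 0.730, 1.21 and 3.08%. Resolution 1.0 gave 7 clusters.

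Genes past the fold, higher and lower, are given for DU101 against control, DU102 against control and DU102 against DU101 in turn. With no CPM minimum they numbered 422 and 1342, 614 and 948, and 1178 and 530. At a mean of at least 100 CPM they numbered 47 and 53, 49 and 37, and 61 and 22, and at a fold of 2 they numbered 40 and 105, 58 and 29, and 102 and 39. TMM factors gave 357 and 341 for DU101 and 167 lower for DU102, and median-of-ratios 385 and 318, and 168 lower. At most 5% mitochondrial UMIs gave 337 higher for DU101, and 431 and 597 for DU102. Control cells with Y-linked RNA alone gave 735 and 1101, and 401 and 723. Cluster 1 alone gave 348 and 995, 515 and 815, and 753 and 346. Cluster 2 alone gave 377 higher, 321 higher and 335 lower. Leaving out cluster 4 gave 210 higher for DU102 against DU101. Fewer cells behind a count widen its counting error.

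Of the values past the fold over all cells, 14 of 110 gene ratios and 4 of 15 list medians changed sign under an alternative and follow; gene ratios within clusters are not among them. At most 5% mitochondrial UMIs gave 0.19 for the acute phase median, 1.78 for Sox4, 1.09 for Clu and 2.48 for Gpc3 in DU101, and -0.06 for Mdm2 and 2.45 for Gpc3 in DU102. Control cells with Y-linked RNA alone gave 1.43 for Hamp in DU101, and 0.24 for Cad, -0.0107 for Cldn3, -0.0017 for Hspb1 and 0.0938 for Eif2s3x in DU102. For DU102 against DU101, immediate early genes had -0.0466 in cluster 1 and -0.19 in cluster 2, where plasma carriers had -0.0257 and complement -0.0227. Without cluster 4, Cxcl10 in DU101 had -0.99, and Sprr1a and Ahsg in DU102 had -0.87 and -0.46. Without the top cell of each library, Hibch in DU101 had -0.17. The cause was not tested for any of these. Of the values under the fold, 15 of 28 gene ratios and 44 of 63 list medians changed sign under an alternative.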
